A study of Rattus norvegicus with 5 samples.

Results

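Transcripts of 6 protein-coding genes of the rat mitochondrial genome were followed in microglia of rat offspring. They encode the mitochondrial subunits of respiratory complexes III, IV and V, and were found by their Ensembl identifiers, as 6 of 35495 features in the deposited tables. The members were mt-Cyb (ENSRNOG00000031766), mt-Co1 (ENSRNOG00000034234), mt-Co2 (ENSRNOG00000030371), mt-Co3 (ENSRNOG00000030700), mt-Atp6 (ENSRNOG00000031979) and mt-Atp8 (ENSRNOG00000033299). All 6 were present in both tables and counted in all 5 libraries.

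The study asked how CYP11A1, the enzyme that starts steroid synthesis from cholesterol, affects the offspring when it is raised in the mother. Pregnant Sprague Dawley dams received, at gestational day 8.5, an adenovirus with the CYP11A1 gene (test dams) or the control vehicle adenovirus (control dams). The offspring themselves were not injected, and every dam received a virus. Without offspring of uninjected dams, an effect of the vector itself was not tested. Microglia of male offspring were isolated on Percoll gradients at 6 to 8 weeks per the methods, or 3 months per the labels. The libraries analysed here were control 1 and control 3 (n = 2) and CYP11A1 1, 2 and 3 (n = 3). Neither the labels nor the methods tie a library to a dam or litter, so the p-values cover only the spread between these libraries. The paper reports Cd11b staining of the microglia, with most but not all cells positive. In the counts, the identity of the cells was not checked against microglial markers. For that, 0 of the 35495 identifiers could be paired with a gene symbol here.

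Mitochondria keep a small circular genome, which encodes a few subunits of the respiratory chain, while the other subunits are encoded in the nucleus and imported. Complex III passes electrons from ubiquinol to cytochrome c, complex IV (cytochrome c oxidase) passes them on to oxygen, and complex V (ATP synthase) uses the proton gradient that results to make ATP. Each strand of the genome is transcribed as a long precursor that is cut into single messages, so the messages of one strand are made together, and their levels also depend on processing and stability. In the mammalian order mt-Co1, mt-Co2, mt-Atp8, mt-Atp6 and mt-Co3 lie close together on the same strand, and mt-Cyb lies further along it.

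The identity of the members was checked by their length, recovered from the counts, the FPKM (counts per kilobase of feature and per 1000000 counts of the library) and the library totals. The coding length was 1545 bases for mt-Co1, 1143 for mt-Cyb, 784 for mt-Co3, 684 for mt-Co2, 681 for mt-Atp6 and 204 for mt-Atp8, the same in all 5 libraries. This is the size order of these genes, with mt-Atp8 by far the shortest. For 5 members the length was a whole number of codons, while mt-Co3 held 261 codons and 1 further base. A mitochondrial message of this kind ends in an incomplete stop codon that the poly(A) tail completes. Reading frames of mt-Atp8 and mt-Atp6 overlap on a shared message, and how reads over both were counted is not given in the sources used here, so the level of mt-Atp8 is uncertain. Reads shared with copies of mitochondrial DNA in the nucleus could add the same kind of uncertainty to any member, which was not tested.

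Libraries held between 9623896 and 13624545 counts. Control 1 and CYP11A1 3 stood apart from the rest, with 12042 and 10766 features detected against 14953 to 16969, although their totals were the highest. Differences between the groups in shares and fold changes are therefore also given without both of them.

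Together the 6 transcripts took between 21.9% and 45.0% of the counts of a library, and the groups overlapped. Their summed share of counts was 34.3% in control 1 and 41.2% in control 3, against 45.0% in CYP11A1 1, 35.6% in CYP11A1 2 and 21.9% in CYP11A1 3. The CYP11A1 group held both the highest and the lowest library, and the controls lay between them. The mean share was 37.8% ± 4.88 (SD, n = 2) in the control group and 34.2% ± 11.6 (SD, n = 3) in the CYP11A1 group. The widest 95% Wilson interval of a summed share extended 0.0311 percentage points in each direction. It treats reads as independent and leaves out the spread between libraries. Reads of amplified cDNA without molecular identifiers are not independent molecules, so it understates even the counting error. The difference of -3.59 percentage points was smaller than the spread within the CYP11A1 group, and no test was made of this sum. With control 1 and CYP11A1 3 left out, and control 3 as the only control, the log2 ratio was -0.03. It was -0.14 for the mean shares with all libraries. Without CYP11A1 3 alone it was 0.09, on the other side of 0, and without CYP11A1 1 alone it was -0.39. In bulk RNA, fewer cells of a type and less RNA per cell cannot be told apart.

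**Figure D1:**
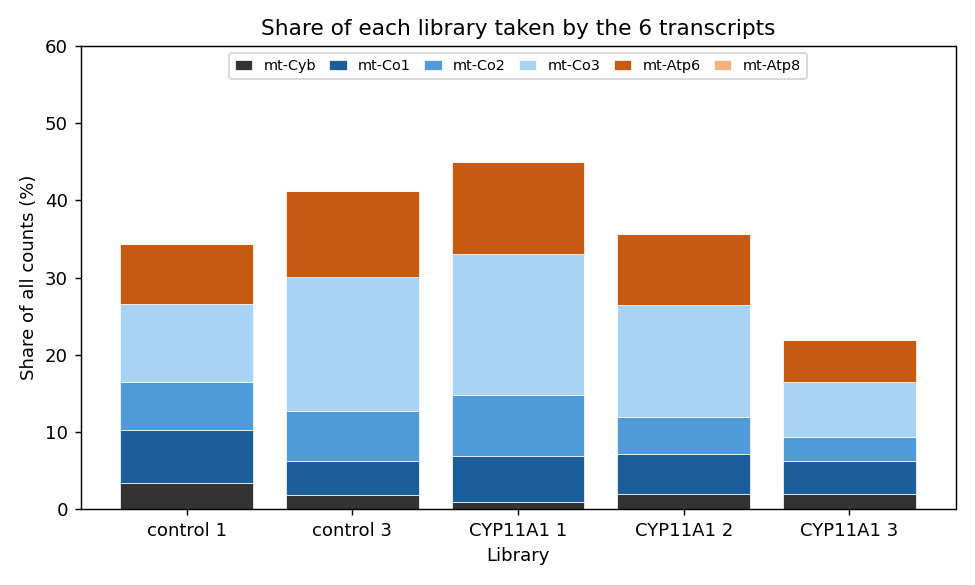
Share of all counts (%, y axis) taken by each of the 6 transcripts in each of the 5 libraries (x axis), stacked. The stacks reach from 21.9% in CYP11A1 3 to 45.0% in CYP11A1 1, and mt-Atp8, at 0.0244% or less, is too thin to be seen.

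Per length, the order of the members was the same in every library. On the FPKM scale the mean level over the 5 libraries was 171672 ± 60204 (SD, n = 5) for mt-Co3, 132961 ± 39028 for mt-Atp6, 83535 ± 26959 for mt-Co2, 34682 ± 6873 for mt-Co1, 17583 ± 8026 for mt-Cyb and 730 ± 345 for mt-Atp8. All 15 pairs of members kept their order in 5 of 5 libraries. The step from mt-Co3 to mt-Atp6 was the smallest, with a ratio within a library of 1.14 to 1.38. The step from mt-Atp6 to mt-Co2 was 1.24 to 1.90, and that from mt-Co2 to mt-Co1 was 1.61 to 3.32. The step from mt-Co1 to mt-Cyb was 1.46 to 4.94, widest in CYP11A1 1. For each of these neighbours the mean log2 ratio exceeded its SD over the libraries, although the levels in different libraries overlapped for all of these neighbours but mt-Co2 and mt-Co1. The last step, from mt-Cyb to mt-Atp8, was 6.55 to 47.5. It and every other pair with mt-Atp8 rest on the uncertain level of that gene.

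**Figure D2:**
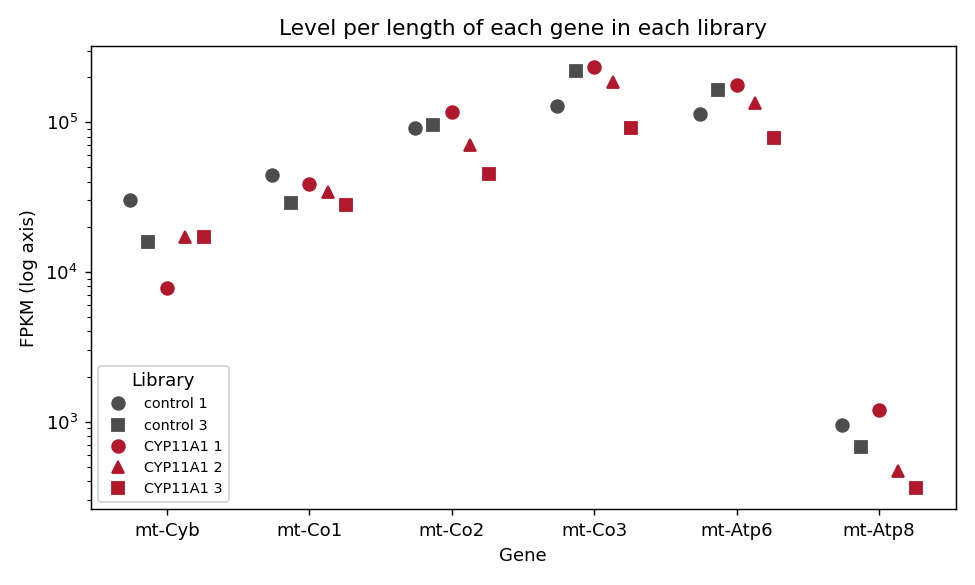
FPKM (y axis, log scale) of each member (x axis) in each library, with control libraries in grey and CYP11A1 libraries in red. The order from mt-Co3 down to mt-Cyb and mt-Atp8 is the same in all 5 libraries, and grey and red points overlap for each gene.

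Complex III has a single mitochondrial subunit, cytochrome b, which carries the haems that move electrons from ubiquinol. Its gene mt-Cyb had 470247 counts in control 1 and 173775 in control 3, against 99067, 204252 and 258272 in CYP11A1 1, 2 and 3. This was 3.45% and 1.81% of the counts in the controls, and 0.897%, 1.94% and 1.95% in the CYP11A1 libraries. Control 1 was the highest and CYP11A1 1 the lowest, and the other 3 libraries lay close together across the groups. After TMM normalization, which corrects the library totals for differences in composition, mt-Cyb stood at 35774 and 17051 CPM (counts scaled to a library of 1000000) in control 1 and 3. It stood at 14629, 14411 and 16707 CPM in the CYP11A1 libraries. On this scale the groups did not overlap, with a gap between control 3 and CYP11A1 3 that was small beside the distance between the controls. Of all features tested, 7.91% were likewise lower in the CYP11A1 group without overlap, and mt-Cyb was 1 of the 6 members to be so. None of the 6 was higher without overlap, as 6.49% of all features were. On the share of counts the groups overlapped for all 6 members, where 7.35% of all features were lower and 5.95% higher without overlap.

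Complex IV has 3 mitochondrial subunits, which form its catalytic core. The gene mt-Co1 encodes the subunit with the site of oxygen reduction. It had 928793 and 426853 counts in control 1 and 3, and 661823, 551112 and 569601 in CYP11A1 1, 2 and 3. As a share of counts this was 6.82% and 4.44%, against 5.99%, 5.24% and 4.30%, so that the CYP11A1 libraries lay between the controls or just below. Over the 5 libraries the coefficient of variation (CV) of its share of counts was 19.8%, and that of its TMM-normalized CPM was 46.3%.

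The gene mt-Co2 encodes the subunit that takes electrons from cytochrome c. Its share of counts was 6.24% and 6.52% in the controls and 7.92%, 4.81% and 3.07% in CYP11A1 1, 2 and 3. The controls were nearly equal, and the CYP11A1 libraries lay on both sides of them. With 1373302 to 1661251 counts in the controls and 953524 to 2016133 in the CYP11A1 group, mt-Co3 was the most counted of all features in each library. It encodes the core subunit that binds no metal. Its share was 10.1% in control 1 and 17.3% in control 3, and 18.3%, 14.5% and 7.20% in CYP11A1 1, 2 and 3. Control 1 and CYP11A1 3 were the low libraries here.

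Complex V has 2 mitochondrial subunits, both in the part of the enzyme that lies in the membrane. The gene mt-Atp6 encodes subunit a, which forms the path for protons beside the rotor. Its share of counts was 7.70% in control 1 and 11.2% in control 3, and 11.9%, 9.11% and 5.36% in CYP11A1 1, 2 and 3. It ranked 2 by count in 4 libraries and 3 in CYP11A1 3. The gene mt-Atp8 encodes a small membrane subunit and had only 2641 and 1327 counts in the controls, and 2698, 1006 and 971 in CYP11A1 1, 2 and 3. Its rank by count ran from 221 to 1025. Per length, mt-Atp6 exceeded mt-Atp8 by 119 to 285 times within a library, lowest in control 1 and highest in CYP11A1 2. The 2 genes overlap on a shared message, and how reads over both were counted is not known. This ratio may thus not be one of transcript levels. Both members had their highest share in CYP11A1 1 and their lowest in CYP11A1 3.

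On the share of counts, the log2 ratio of the group means (CYP11A1 over control) was below 0 for all 6 members, from -0.72 for mt-Cyb to -0.04 for mt-Co3. Without control 1 and CYP11A1 3 it was -0.35 for mt-Cyb, -0.04 for mt-Co2, -0.08 for mt-Co3 and -0.09 for mt-Atp6. It lay on the other side of 0 for mt-Co1 (0.34, against -0.12 with all libraries) and for mt-Atp8 (0.30, against -0.27). With single libraries left out, the ratio of mt-Cyb ran from -1.11 (without control 3) to -0.18 (without control 1). Without CYP11A1 1 it was -0.70 for mt-Co2 and -0.97 for mt-Atp8. These ratios were not tested.

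The spread between libraries was set beside that of other highly counted features. The CV of the share of counts was 45.6% for mt-Cyb, 32.3% for mt-Co2, 35.1% for mt-Co3, 29.4% for mt-Atp6 and 47.2% for mt-Atp8. Among the 100 most counted other features it had a median of 41.5% and ran from 11.6% to 187%. Of these 100, 12 varied less than mt-Co1 and 55 varied less than mt-Cyb. For mt-Atp8, which was counted less often, the 1000 most counted other features had a median CV of 53.8%, and 396 of them varied less. After TMM normalization the CV was 45.9% for mt-Cyb and 46.3% for mt-Co1, and it was 63.4% for mt-Co2, 62.4% for mt-Co3, 58.6% for mt-Atp6 and 79.8% for mt-Atp8. Among the 100 most counted other features the median was 46.7% on that scale, and 50 of them varied less than mt-Co1 and 49 less than mt-Cyb. The low spread of mt-Co1 was thus seen on the share of counts and not after TMM normalization.

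The comparison between offspring of test and control dams was fitted over all 10346 features that passed the filter on low counts, and all 6 members passed it. By edgeR's quasi-likelihood test (p-values adjusted by Benjamini-Hochberg) 0 of the 6 members were called at an adjusted p under 0.05, as were 0% of all features. None of the 6 had an unadjusted p under 0.05 in that test either, against 4.26% of all features (1.46% with a rise and 2.8% with a fall). DESeq2 called 0 of the 6 members too, and 0.146% of the features to which it gave an adjusted p.

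The gene furthest from equality was mt-Cyb, with a log2 fold change (CYP11A1 over control, after TMM normalization) of -0.79 ± 0.61 (SE), or 0.577-fold. Its unadjusted p was 0.217 and its adjusted p 0.9998 in edgeR's quasi-likelihood test. The 95% interval ran from 0.23-fold to 1.45-fold. Over all features 43.5% had a log2 fold change below 0, and the median of all was 0.15. Without control 1, the library in which mt-Cyb was highest, its log2 fold change was -0.17 ± 0.88 (SE), and without control 3 it was -1.27 ± 0.77 (SE). Without control 1 and CYP11A1 3 together it was -0.25 ± 1.22 (SE).

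The other members stayed near equality in the same fit. The log2 fold change was 0.04 ± 0.66 (SE) for mt-Co1, 0.01 ± 0.74 for mt-Co2, 0.22 ± 0.73 for mt-Co3, 0.15 ± 0.71 for mt-Atp6 and 0.10 ± 0.87 for mt-Atp8. Each adjusted p was 0.9998 (edgeR's quasi-likelihood test). These values do not show that the levels were alike, since the 95% intervals reached from 0.38-fold to 2.80-fold for mt-Co1, the narrowest of the 5, and from 0.29-fold to 3.97-fold for mt-Atp8, the widest.

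The sign of these 5 values depended on the scaling and on single libraries of both groups. TMM set the effective total of CYP11A1 1 to 0.615 times its counts, and on that scale this library was the highest for all 5, with mt-Co3 at 297713 CPM against 61682 to 163001 in the others. With library size alone, all 6 log2 fold changes were below 0, from -0.72 for mt-Cyb to -0.04 for mt-Co3. With scaling to the counts outside the 6 members, those of mt-Co3 (0.17) and mt-Atp6 (0.09) were above 0 and the other 4 below. Without CYP11A1 1 all 6 were below 0, and mt-Co2 had a log2 fold change of -1.03 ± 0.39 (SE), with an unadjusted p of 0.0314 and an adjusted p of 0.9997 in edgeR's quasi-likelihood test. In that fit 3.69% of all features had an unadjusted p under 0.05, 2.73% with a fall. Without control 3, mt-Co1 (-0.34), mt-Co2 (-0.08) and mt-Atp8 (-0.25) were below 0, and without control 1, mt-Co3 (-0.08) and mt-Atp6 (-0.06) were. Without control 1 and CYP11A1 3, the 5 members other than mt-Cyb ran from 0.30 to 0.84.

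**Figure D3:**
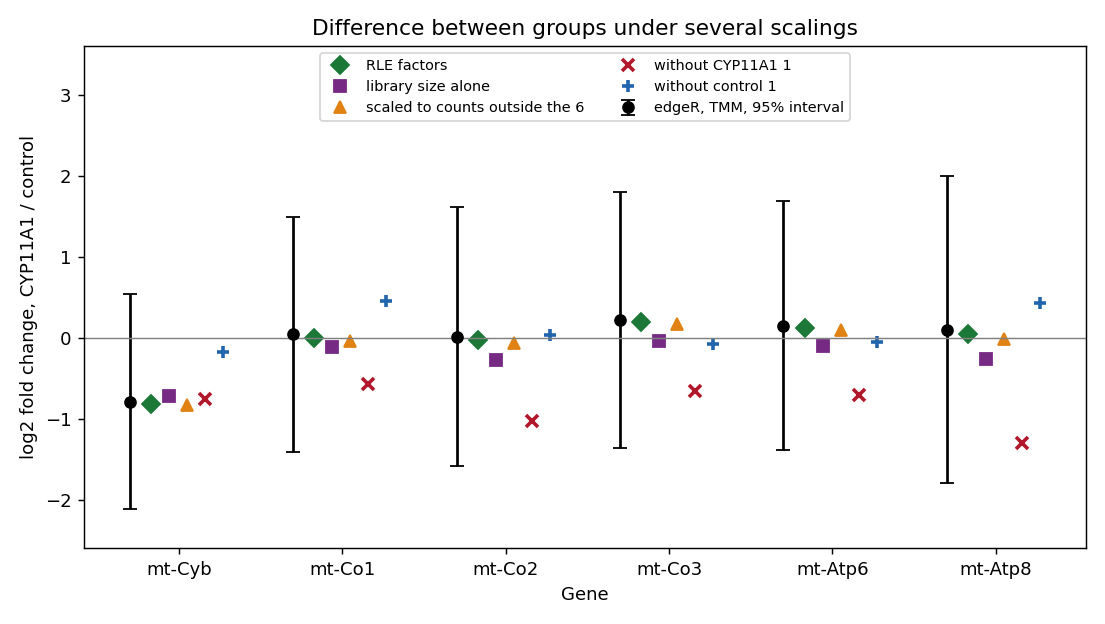
Log2 fold change of each member (CYP11A1 over control, y axis; genes on the x axis) from edgeR with TMM factors, with its 95% interval as bars, beside the same value under 3 other scalings and without 1 library. Every interval spans 0, mt-Cyb lies below 0 in each setting drawn, and the other 5 lie on both sides.

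Within the 6 transcripts the balance shifted between libraries in a way that crossed the groups. In control 1 and CYP11A1 3, the libraries with the fewest features detected, mt-Cyb made up 10.1% and 8.91% of the counts of the 6, against 1.99% to 5.46% in the other 3. For mt-Co1 the values were 19.9% and 19.7% against 10.8% to 14.7%. By contrast, mt-Co3 made up 29.4% and 32.9% there and 40.6% to 41.9% in the others, and mt-Atp6 made up 22.4% and 24.5% against 25.6% to 27.1%. The 2 members with a higher part in these libraries, mt-Co1 and mt-Cyb, are the longest of the 6. For mt-Co2 (18.2% and 14.0% against 13.5% to 17.6%) and mt-Atp8 the ranges overlapped. The libraries were set apart by features detected and not by the members, and the part that depth, detection or transcript length has in this shift was not tested.

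Expressed as ratios per length, mt-Co3 stood 2.91 and 3.30 times above mt-Co1 in control 1 and CYP11A1 3, and 5.45 to 7.67 times in the other libraries. The ratio of mt-Co3 to mt-Cyb was 4.26 and 5.38 in the former and 10.9 to 29.7 in the latter, with the highest value in CYP11A1 1.

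**Figure D4:**
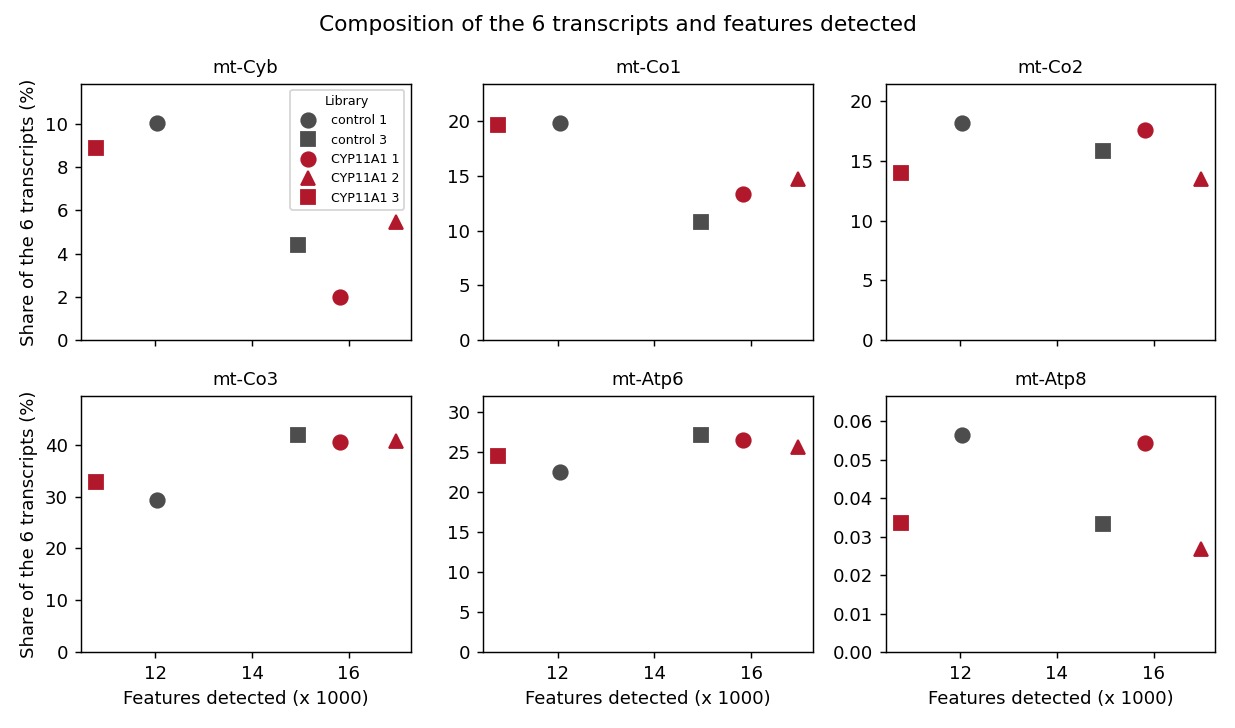
Part of the counts of the 6 transcripts held by each member (%, y axis, one panel per gene) against the features detected in the library (x axis, in units of 1000). The 2 points at the left are CYP11A1 3 and control 1, where mt-Cyb and mt-Co1 hold more and mt-Co3 and mt-Atp6 less than in the 3 libraries at the right.

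The members did not share one pattern: in CYP11A1 1 the share of mt-Cyb was its lowest (0.897%) and that of mt-Co3 its highest (18.3%). Like features were therefore sought for their mean alone, in which each member weighs the same. Among 2842 others with at least 10 CPM on average, Pearson's r was taken over the 5 libraries with the mean log2(CPM + 1) of the 6. That mean was 14.6 and 14.5 in control 1 and 3, and 14.6, 14.3 and 13.8 in CYP11A1 1, 2 and 3. Only 2 features reached an r of 0.95. Novel02127, a feature 466 bases long without an Ensembl identifier, had an r of 0.989, and ENSRNOG00000010730, 619 bases long, had 0.977. The latter stood at 328 and 322 CPM in the controls and at 256, 119 and 31.3 CPM in CYP11A1 1, 2 and 3. This was a much steeper fall towards CYP11A1 3 than in the mean of the members. With 5 points that share library totals, these values are a description of the libraries.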

How the data were processed

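RNA of microglia from the offspring was analysed in 5 libraries, 2 of the control group and 3 of the CYP11A1 group, grouped by the treatment label and numbered by their titles. The cDNA was amplified with a full-length kit for low input per the methods (the labels name a small RNA kit). The authors deposited raw read counts per feature, and FPKM that equal these counts divided by library total and feature length. The submitters' processing notes name HISAT2 2.0.4 and HTSeq 0.9.1, and the genome build, strand setting and handling of multiply mapped reads are not given in the sources used here.

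Counts were fitted with edgeR 4.0.16 (R 4.3.3) over all features: filterByExpr with a minimum count of 10, TMM factors, glmQLFit, glmQLFTest and Benjamini-Hochberg adjustment, with group as the only term and 0.05 as the threshold. The SE of a fold change was taken from its F statistic. Alternatives used DESeq2 1.42.0 and limma 3.58.1. Shares carry Wilson intervals at the 95% level (scipy 1.17.1). Pearson's r used log2(CPM + 1). Figures were drawn with matplotlib 3.10.9.

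The members, lists and tests were chosen with earlier results of these data known. The 6 members were always named, and the rule for like patterns was to take the features of highest r. Lists of nuclear subunits, the remaining mitochondrial genes and cell type markers had been planned by symbol and were not analysed, because no identifier could be paired with a symbol. For the same reason features outside the mitochondrial genome were taken as those outside the 6 members, and the share of all mitochondrial messages was replaced by the share of the 6.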

Additional observations from a re-analysis of the deposited data

How the results depend on the processing

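By edgeR's quasi-likelihood test 0 features were called at the adjusted threshold of 0.05, and 441 at the unadjusted one. DESeq2 called 11 features, the fit without a filter on low counts called 10, and the other fits called 0. No member was called in any of the 19 alternatives, in which the adjusted p of the members ran from 0.645 to 0.999995. Leaving out a library lowers the power, so these counts of 0 show no stability, and where 1 control was left out, the lone control was assumed to vary like the other group. The log2 fold change of mt-Cyb was below 0 in all 19 alternatives, from -1.27 (without control 3) to -0.17 (without control 1). The fold changes of the other 5, which were above 0 in edgeR with TMM, turned below 0 as follows. With RLE factors they were -0.0010 for mt-Co1 and -0.026 for mt-Co2, and with DESeq2 also -0.0010 and -0.026. With library size alone they were -0.12 (mt-Co1), -0.28 (mt-Co2), -0.037 (mt-Co3), -0.10 (mt-Atp6) and -0.27 (mt-Atp8). Scaled to the counts outside the 6 members they were -0.039 (mt-Co1), -0.068 (mt-Co2) and -0.016 (mt-Atp8). Without a filter on low counts they were -0.062, -0.093 and -0.046 for the same genes. With at least 10 counts in every library mt-Co2 gave -0.023. On log2(FPKM + 1) in limma, with and without a filter, the values were -0.099 (mt-Co1), -0.38 (mt-Co2), -0.089 (mt-Co3), -0.15 (mt-Atp6) and -0.45 (mt-Atp8), and a pseudocount of 0.1 gave the same to these digits.

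Same-numbered libraries did not vary together (correlation of deviations -0.284 across 10346 features, which are not independent replicates), and no source says that the numbers mark shared animals or days. When replicate numbers 1 and 3 entered as a block (4 libraries), the log2 fold changes were -0.23 (mt-Co2), -0.063 (mt-Co3), -0.075 (mt-Atp6) and -0.15 (mt-Atp8), and 0 features were called (101 at an unadjusted p under 0.05). A crossed pairing, chosen after seeing the data, gave the same 4 values to these digits and called 0 features (355 unadjusted). With each library left out in turn, the values ran from -0.57 to 0.45 for mt-Co1, from -1.03 to 0.40 for mt-Co2, from -0.66 to 0.62 for mt-Co3, from -0.71 to 0.52 for mt-Atp6 and from -1.31 to 0.52 for mt-Atp8. The lowest value was without CYP11A1 1 for these 5 genes, and the highest without CYP11A1 3, except for mt-Co1, where it was without control 1. The cause of these shifts was not tested. Of the 55 alternative log2 ratios of shares of counts, 13 lay on the other side of 0 from the value with all libraries. Besides those given above, they were mt-Co1 without control 1 (0.22), mt-Co3 without control 3 (0.40), without CYP11A1 3 (0.26) and without the 100 most counted other features (0.0029), mt-Atp6 without control 3 (0.19) and without CYP11A1 3 (0.16), mt-Atp8 without CYP11A1 3 (0.036), and, as shares of the 6, mt-Co1 (0.054), mt-Co3 (0.095) and mt-Atp6 (0.043). With each library left out in turn the ratios ran from -0.40 to 0.22 for mt-Co1, from -0.70 to -0.0040 for mt-Co2, from -0.37 to 0.40 for mt-Co3, from -0.38 to 0.19 for mt-Atp6 and from -0.97 to 0.036 for mt-Atp8.

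The members other than mt-Atp8 had at least 99067 counts in each library, and mt-Atp8 had 971 to 2698. The coefficient of variation of the members over the 5 libraries ran from 19.8% to 47.2% on shares of counts, and from 45.9% to 79.8% on the TMM scale (added after seeing the data). What limits the comparisons most was not tested.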
